A study of Mus musculus with 3 samples.

Results

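Distal RARα peaks shared with RXRα are places in the mouse liver genome, more than 10 kb from the start of any protein-coding gene, where a peak of the retinoic acid receptor alpha (RARα) lay on a region bound by the retinoid X receptor alpha (RXRα). They were selected on measured values. A RARα peak was taken with a score over 20 and up to 100. Its summit had to lie more than 10 kb from the annotated 5′ end of every protein-coding gene. That end is called the transcriptional start site (TSS) here, and starts of other transcripts of a gene were not used. The peak also had to overlap an RXRα region by at least 25% of the narrower interval. An RXRα region was a run of 32 bp bins in which RXRα was at least 20 times the input, with bins within 200 bp joined. This gave 4555 peaks of the 143280 in the RARα list and of the 14650 distal peaks in the same score range, a background share of 31.1%. Among the 17220 RARα peaks of the same scores within 10 kb from a TSS the share was 32.4%. Seen from the other receptor, 12526 of 27023 distal RXRα regions (46.4%) overlapped a RARα peak of any score by the same minimum of 25%. Of the same regions, 4419 (16.4%) so overlapped one of the 4555.

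The chromatin came from livers of male wild type C57BL/6 mice at 3 months of age, without a treatment in the sample labels. There were 3 libraries, 1 precipitated with an anti-RXRα antibody, 1 with an anti-RARα antibody and 1 of input chromatin that was not precipitated. The RXRα and input tracks give coverage in 32 bp bins, with 5 bins per read, and sum to 9999939 and 9999292 reads. These totals are nearly equal and are those of the deposited tracks, whose signal was normalised, not the depths of the libraries. The RARα file lists peaks alone and carries no depth. The list does not say what its score measures. The study's methods set a cutoff as a fold over input without naming this column, and the score serves here to select and order peaks. None of the libraries has a replicate, so peaks of 1 library describe that library, the ranges in parentheses after shares are 95% Wilson intervals for counting error only, and no test between libraries was possible. The intervals treat peaks as independent and are too narrow, because 2549 of the 4555 peaks (56.0%) followed or preceded another RARα peak at a gap of 10 bp. Whole liver was used, and a site bound in fewer cells cannot be told apart from a site bound less in each cell.

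RARα and RXRα are nuclear receptors that bind DNA as a heterodimer. RARα is activated by all-trans retinoic acid, a derivative of vitamin A, and RXRα is also the partner of other receptors of the liver, such as PPARα, LXR, FXR and PXR, which sense fatty acids, oxysterols, bile acids and foreign compounds. Each receptor of a pair contacts a half-site whose best form is AGGTCA, and the number of bases between the half-sites of a direct repeat (DR) is known to favour certain pairs: RXR with PPAR on DR1, RXR with LXR on DR4, and RXR with RAR on DR5 and DR2. Enhancers of hepatocytes also carry sites for HNF4α, C/EBP and FOXA factors, whereas CTCF is a zinc finger protein that binds insulators and the anchors of chromatin loops.

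Direct repeats of 2 exact copies of AGGTCA are given first. In the 201 bp around the RARα summits, 4 of the 4555 peaks held 2 copies of AGGTCA as a direct repeat with a spacing of 1. They are printed 5′ to 3′ on the strand of the repeat, from the mm9 genome, with 20 bases on each side and the repeat in capitals. They are named by the gene with the nearest start.
Phospho1 (chr11:95640317-95640369, minus strand): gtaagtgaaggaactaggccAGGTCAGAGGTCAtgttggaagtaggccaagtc
5730437N04Rik (chr17:5217414-5217466, minus strand): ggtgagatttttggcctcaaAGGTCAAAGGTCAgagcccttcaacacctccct
Arhgef26 (chr3:62156138-62156190, minus strand): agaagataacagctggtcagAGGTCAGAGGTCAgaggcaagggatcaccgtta
Gtf2e2 (chr8:34917401-34917453, plus strand): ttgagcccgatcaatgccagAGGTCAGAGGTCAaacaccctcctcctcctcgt
The same repeat was found in 0.0258% of the windows placed every 20 kb along the genome and in 2 of the 10095 distal RARα peaks of the same scores without an RXRα region. The repeat near Gtf2e2 was centred 18 bp from the summit, and it was the only one of the 4 within 20 bp. The peak lay in an intron of Rbpms and had a RARα score of 31, a mean RXRα signal of 73.1 per bin and a mean input signal of 2.88. The peak near Phospho1 had a score of 30 with 63.6 and 3.06, that at Arhgef26 a score of 26 with 30.8 and 1.57, and that near 5730437N04Rik, in an intron of Arid1b, a score of 24 with 29.6 and 1.93.

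A spacing of 2 was found in 1 peak and a spacing of 4 in 2 peaks, against 0.00704% and 0.0117% of the genome windows and 1 peak each without RXRα.
Lpin1 (chr12:16568102-16568155, minus strand): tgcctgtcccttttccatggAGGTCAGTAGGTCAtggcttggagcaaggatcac
Nmral1 (chr16:4702835-4702890, plus strand): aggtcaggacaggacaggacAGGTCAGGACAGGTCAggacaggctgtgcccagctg
Paqr7 (chr4:134041223-134041278, minus strand): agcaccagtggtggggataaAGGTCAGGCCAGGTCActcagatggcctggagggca
The DR2 of Lpin1, the gene of a phosphatidate phosphatase of triglyceride synthesis, was centred 1.5 bp from the RARα summit in an intron of that gene. Its RARα score was 34, but its RXRα signal was among the low ones, with a mean of 6.90 against an input of 2 and a highest ratio of 23.2. The DR4 near Nmral1 stood in a row of similar units, as the bases before it show, and was centred at -92.5 bp from the summit in genome orientation, with a score of 33 and RXRα at 79.4 against 5.61. The DR4 near Paqr7 had a score of 28 and a mean RXRα signal of 99.5 against 2.45.

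No peak held 2 copies of AGGTCA with a spacing of 5, the classical element of RAR with RXR (0 of 4555, which allows a share of up to 0.0659%). In the genome windows that repeat was at 0.00939%, below this limit, and 1 peak without RXRα held it, so its absence here is not a difference that this number of peaks could show. With 4 accepted forms of each half-site (AGGTCA or GGGTCA, or else AGTTCA or GGTTCA, on either strand), 11 peaks held a DR5. The 3 of them with the highest RXRα over input are shown to make clear how far they depart from the repeat of AGGTCA.
Klf9 (chr19:23131459-23131515, plus strand): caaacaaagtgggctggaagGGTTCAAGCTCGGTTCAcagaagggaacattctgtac
Ndrg1 (chr15:66845337-66845393, plus strand): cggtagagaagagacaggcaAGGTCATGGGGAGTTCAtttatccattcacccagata
Vps13d (chr4:144624693-144624749, minus strand): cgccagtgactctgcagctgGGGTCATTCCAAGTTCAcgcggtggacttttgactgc
The first lies at -84196 bp from the start of Klf9, a zinc finger factor induced by glucocorticoid and thyroid hormone, and had a RARα score of 23 with a mean RXRα signal of 37.4 against an input of 0.750. The second, at -44078 bp from the start of Ndrg1, had a score of 24 with 118 against 4.73.

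With the same 4 forms, 40 peaks held a DR1. The 3 with the highest RXRα over input follow.
Myom1 (chr17:71439577-71439629, minus strand): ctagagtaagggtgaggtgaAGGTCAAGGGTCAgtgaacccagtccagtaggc
Auh (chr13:52915363-52915415, plus strand): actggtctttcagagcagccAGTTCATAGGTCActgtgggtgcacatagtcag
Neurod1 (chr2:79209437-79209489, plus strand): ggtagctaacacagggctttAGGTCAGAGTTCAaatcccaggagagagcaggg
The peak in Myom1 had a mean RXRα signal of 96.9 against an input of 1.14 and a RARα score of 24. All 3 repeats were centred within 50 bp of the summit.

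Scores ran from 21 to 100 among the 4555 peaks with a median of 28 and a 90th percentile of 51. The mean RXRα signal over the peak had a median of 26.1 per bin, the 10th percentile at 9.07 and the 90th at 57.8, and the input a median of 2. RXRα enrichment, the mean RXRα signal divided by the larger of the mean input over the peak and the genome mean of 0.603, had a median of 12.96 and reached 138. These values chose the peaks and are given as a description. The false discovery rate given with the RARα peaks was at most 1% for 97.3% of them. At the limits of the rule, 424 peaks had a score of 21, while 593 distal peaks on an RXRα region had a score of 20. At the upper limit 4 peaks had a score of 100, and 80 distal peaks on an RXRα region scored 101 or more. The closest peak was 10031 bp from a start, and the farthest RARα peak on an RXRα region inside the limit was at 9996 bp. The lowest ratio that made a region was 20.3, and 669 peaks lay on regions with a highest ratio under 25. Outside, 955 distal RARα peaks without a region had a highest bin between 15 and 20 times input, and 93 had a bin at 20 or more but too little overlap.

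The position of RXRα inside the peak was limited by the overlap but not set by it. The highest RXRα bin lay a median of 8 bp to the left of the RARα summit in genome orientation, with the 10th percentile at -119 bp and the 90th at 96 bp. For 78.0% of the peaks (76.8 to 79.2%) it was at most 100 bp away from the summit. In the 10095 distal RARα peaks without an RXRα region, whose RXRα signal is low by selection, the same held for 69.2% (68.3 to 70.1%). Averaged over the 4555 peaks, the RXRα signal was 56.0 per bin at the RARα summit and 4.43 at 992 bp downstream, while input was 2.54 and 1.30. The corresponding RXRα signal at the summit was 7.96 for distal peaks without a region, against an input of 2.34, and 35.3 for shared peaks within 10 kb from a TSS.

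**Figure D1:**
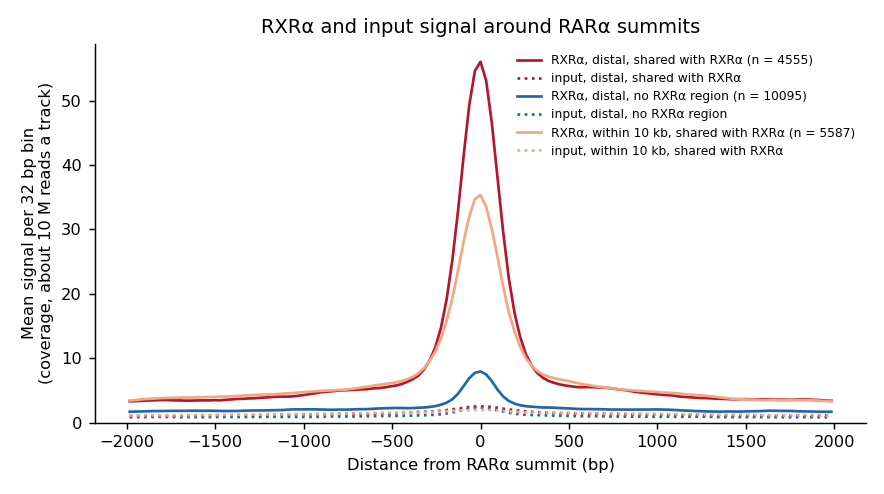
Mean RXRα (solid) and input (dotted) signal per 32 bp bin against the distance from the RARα summit, for the 4555 distal shared peaks, 10095 distal RARα peaks without an RXRα region and 5587 shared peaks within 10 kb from a TSS. RXRα over the distal shared peaks is centred on the summit, where it averages 56.0 against an input of 2.54.

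Sequence was not used to choose the peaks. Within 100 bp of the summit, AGGTCA on either strand occurred in 26.7% of the distal shared peaks (25.4 to 28.0%). It occurred in 11.97% (11.3 to 12.6%) of the distal RARα peaks without an RXRα region, in 12.8% (12.1 to 13.5%) of windows 1 kb to each side of the shared peaks, and in 11.1% (10.9 to 11.2%) of windows placed every 20 kb along the genome. The RARα peaks without RXRα carried the half-site about as often as the flanks and the grid. With the 4 forms counted together, the shares were 56.3% in the distal shared peaks, 34.8% without RXRα and 34.0% in the grid. Shared peaks within 10 kb from a TSS held it in 18.7% (17.7 to 19.7%). The highest share, 36.0% (35.3 to 36.8%), was found in the 14497 distal RXRα regions without RARα. No RARα peak of any score overlapped these by 25% or more of the narrower interval. Those regions were centred on their bin of highest RXRα over input. Centred in the same way, on that bin of their region, the shared peaks held AGGTCA in 29.7% (28.4 to 31%). Base composition differed between these sets, with a median GC content of 50.2% in the distal shared peaks, 48.3% without RXRα, 58.2% within 10 kb, 46.3% in the distal RXRα regions without RARα and 41.8% in the grid, and its part in the shares was not tested.

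Exact direct repeats were rare everywhere. A DR1 of the 4 forms occurred in 0.878% (0.646 to 1.19%) of the distal shared peaks, 0.198% (0.128 to 0.306%) of those without RXRα and 0.139% (0.1196 to 0.160%) of the grid. The DR5 shares were 0.241% (0.135 to 0.432%), 0.0198% (0.00543 to 0.0722%) and 0.0642% (0.0517 to 0.0796%), in the same order. DR4 gave 0.263% (0.151 to 0.460%) in the shared peaks and 0.0792% (0.0402 to 0.156%) in those without RXRα, and DR2 gave 0.417% (0.267 to 0.651%) and 0.0693% (0.0336 to 0.143%). Each of these 4 spacings was more frequent in the shared peaks than in those without RXRα, with intervals that did not overlap for DR1, DR2 and DR5 and overlapped narrowly for DR4. In the grid, DR2 was at 0.191% (0.168 to 0.216%), above the peaks without RXRα, and 92 of 245 grid matches (37.6%) were the single word GGTTCAGAGGTTCA. With up to 2 mismatches to 2 copies of AGGTCA, a setting chosen after seeing the data, DR1 occurred in 10.1% (9.28 to 11.03%) of the shared peaks, 2.78% (2.48 to 3.12%) of those without RXRα and 2.504% (2.25 to 2.79%) of windows every 200 kb. In all, 90 peaks (1.98%) held a repeat of spacing 1 to 5, and their regions had a median highest RXRα ratio of 72.7, compared to 46.5 for the other 4465. The RARα scores of both groups were alike, with medians of 27 and 28. The distal RXRα regions without RARα had higher shares than the shared peaks at each of these 4 spacings. They held DR1 in 1.61% (1.42 to 1.83%) and DR5 in 0.614% (0.499 to 0.755%). For DR4 it was 0.538% (0.431 to 0.671%), whose interval overlapped that of the shared peaks. These regions were centred on their bin of highest RXRα over input, the shared peaks on the RARα summit. The shared peaks were also centred on the bin of highest RXRα signal in the peak, without division by input. That is not the centring of the regions. So centred, the shared peaks held DR1 in 1.10% (0.834 to 1.44%), an interval that overlaps that of the regions. In the same way DR2 was at 0.615%, DR4 at 0.329% and DR5 at 0.241%. Inverted and everted repeats of spacing 0 to 8 each occurred in at most 10 of the 4555 peaks.

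**Figure D2:**
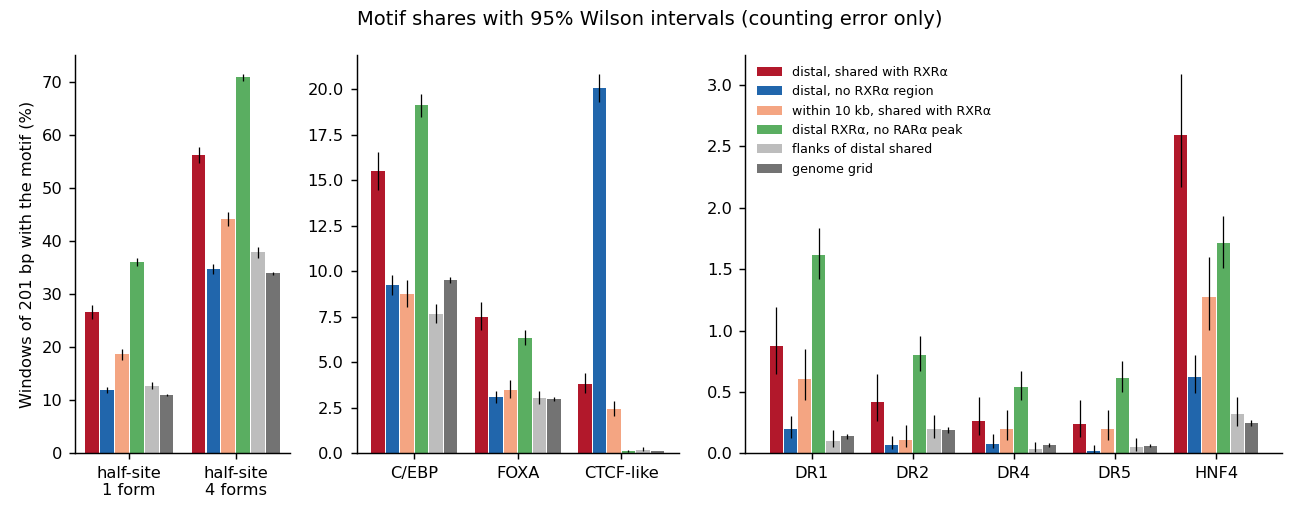
Share of 201 bp windows that hold each motif, in percent with 95% Wilson intervals, for the distal shared peaks, the other peak sets, flanks 1 kb from the summits and windows every 20 kb of the genome; each panel has its own scale. HNF4 is CAAAGTCCA, C/EBP is TTGCNNAA and FOXA is TGTTTAC, and the distal shared peaks stand highest for HNF4 at 2.59%, while peaks without RXRα stand highest for the CTCF-like core at 20.1%.

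Sites of the hepatocyte factors HNF4α, C/EBP and FOXA were also more frequent than in distal RARα peaks without RXRα and in shared peaks within 10 kb. For the GATA site AGATAA the intervals overlapped. It occurred in 10.1% (9.24 to 10.98%) of the distal shared peaks, 8.82% (8.28 to 9.39%) of those without RXRα and 10.97% (10.3 to 11.6%) of the flanks. CAAAGTCCA, a form known as preferred by HNF4α over RXR pairs and without AGGTCA in it, occurred in 2.59% (2.17 to 3.09%) of the distal shared peaks, 0.624% (0.488 to 0.798%) of the distal peaks without RXRα, 1.27% (1.01 to 1.60%) of shared peaks within 10 kb and 0.247% (0.222 to 0.276%) of the grid. The distal RXRα regions without RARα were lower than the shared peaks here, at 1.71% (1.51 to 1.93%), in contrast to the half-site. Their windows were centred on the bin of highest RXRα over input, those of the shared peaks on the RARα summit. No value of CAAAGTCCA with the same centring is given here. The C/EBP form TTGCNNAA was found in 15.5% (14.5 to 16.6%), against 9.22% (8.67 to 9.80%) without RXRα and 8.73% (8.02 to 9.50%) within 10 kb. The FOXA form TGTTTAC was found in 7.51% (6.78 to 8.31%), against 3.07% (2.75 to 3.43%) and 3.51% (3.06 to 4.02%). The ETS site CCGGAAG, frequent in promoters, was the reverse, with 1.65% (1.32 to 2.06%) in the distal shared peaks and 8.20% (7.51 to 8.95%) in shared peaks within 10 kb. The 2 peaks with the highest RXRα over input among those with CAAAGTCCA, near Lemd1 and Hsd17b6, are shown with that motif in capitals.
Lemd1 (chr1:134066892-134066940, plus strand): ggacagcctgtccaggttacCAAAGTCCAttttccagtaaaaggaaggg
Hsd17b6 (chr10:127386748-127386796, minus strand): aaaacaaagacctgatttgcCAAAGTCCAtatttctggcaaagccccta

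Among all words of 8 bases present in at least 2% of the peaks, the word most raised over the flanks was CAAAGTCC, in 4.85% of peaks and 0.922% of flank windows. TTGCACAA, a C/EBP form, followed with 2.48% and 0.494%. CAAAGGTC, which ends in the first 5 bases of the half-site, was next with 4.08% and 0.900%. GCCCCGCC, a word of G and C alone, was at rank 4 with 2.17% and 0.461%. CTGTTTAC, a FOXA form, was at rank 12 with 2.61% and 0.746%. Of the 20 words that led this order, AGAGGGCG and CAGAGGGC were the ones that were more frequent in distal RARα peaks without RXRα, at 5.33% and 6.56%, than in the shared peaks, at 2.24% and 4.48%. Both belong to the site of CTCF.

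A core of 12 bases like that of CTCF, defined with the frequent words of these peaks known, occurred in 174 of the distal shared peaks, 3.82% (3.30 to 4.42%), and in 2025 distal RARα peaks without RXRα, 20.1% (19.3 to 20.9%). Only 0.124% (0.0786 to 0.196%) of the distal RXRα regions without RARα and 0.123% (0.105 to 0.144%) of the grid held it. In the shared peaks, 83.3% of the matches within 300 bp of the summit were within 50 bp of it, compared to 25.2% of the AGGTCA matches and 46.5% of the CAAAGTCCA matches. The 174 peaks with this core had a median RARα score of 42 and a median highest RXRα ratio of 28.6, whereas the other 4381 had 27 and 48.0. They held AGGTCA in 28.2% (22.0 to 35.3%) and the others in 26.6% (25.3 to 27.9%), which could not be told apart at this number of peaks. The 2 with the highest RARα score, both at 100, are shown with the core in capitals.
Gm10020 (chr15:52290558-52290609, minus strand): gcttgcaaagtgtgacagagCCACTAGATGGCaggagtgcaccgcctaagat
Prkcq (chr2:11253285-11253336, plus strand): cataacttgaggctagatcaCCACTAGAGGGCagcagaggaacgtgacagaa
The first lies 19238 bp downstream of the start of Gm10020 and the second 159575 bp downstream of that of Prkcq, both outside genes.

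**Figure D3:**
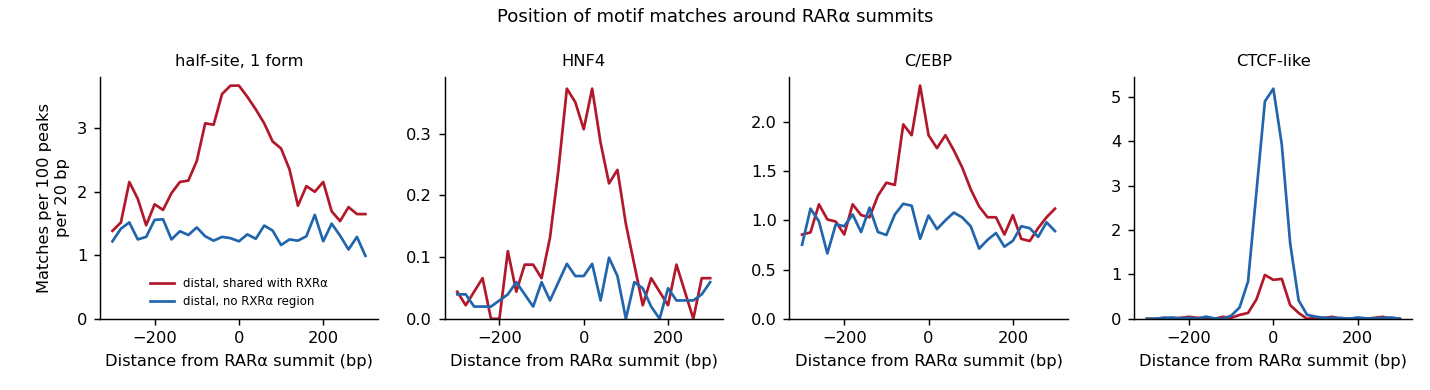
Matches per 100 peaks in steps of 20 bp against the distance from the RARα summit, for the distal shared peaks and the distal RARα peaks without an RXRα region. AGGTCA (half-site, 1 form) reaches 3.67 per 100 shared peaks at the summit and 1.22 per 100 peaks without RXRα, whereas the CTCF-like core reaches 0.878 and 5.19.

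Within the distal shared peaks the motifs varied with both readouts. Where the highest RXRα ratio of the region was 20 to 30, AGGTCA was present in 18.6% (16.5 to 20.9%) of 1167 peaks, and where it was 100 or more, in 37.4% (33.8 to 41.1%) of 658. The CTCF-like core fell from 8.14% (6.71 to 9.85%) to 1.06% (0.516 to 2.18%) over the same bands. With the RARα score the order was reversed. AGGTCA was present in 28.4% (26.3 to 30.5%) of 1808 peaks with a score of 21 to 25 and in 21.6% (18.9 to 24.5%) of 829 with a score of 41 to 100. The CTCF-like core rose from 1.05% (0.674 to 1.64%) to 10.98% (9.03 to 13.3%), and the C/EBP form went from 16.9% (15.3 to 18.7%) to 8.20% (6.52 to 10.3%). Distance from the gene made less difference for AGGTCA, with 25.3% (23.0 to 27.8%) of peaks at 10 to 20 kb and 28.8% (25.7 to 32.1%) of those over 100 kb away. This did not hold for every motif. Over the same distances the CTCF-like core fell from 5.75% (4.61 to 7.16%) to 2.48% (1.596 to 3.85%). The C/EBP form went from 13.4 to 17.5% with distance and from 12.5 to 16.4% with the RXRα ratio. The FOXA form went from 7.23 to 9.15% and from 6.26 to 7.45%, in the same order. For these 2 forms the intervals by distance overlapped. AGGTCA was as frequent inside genes, at 26.8% (25.05 to 28.5%), as outside them, at 26.5% (24.7 to 28.5%).

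**Figure D4:**
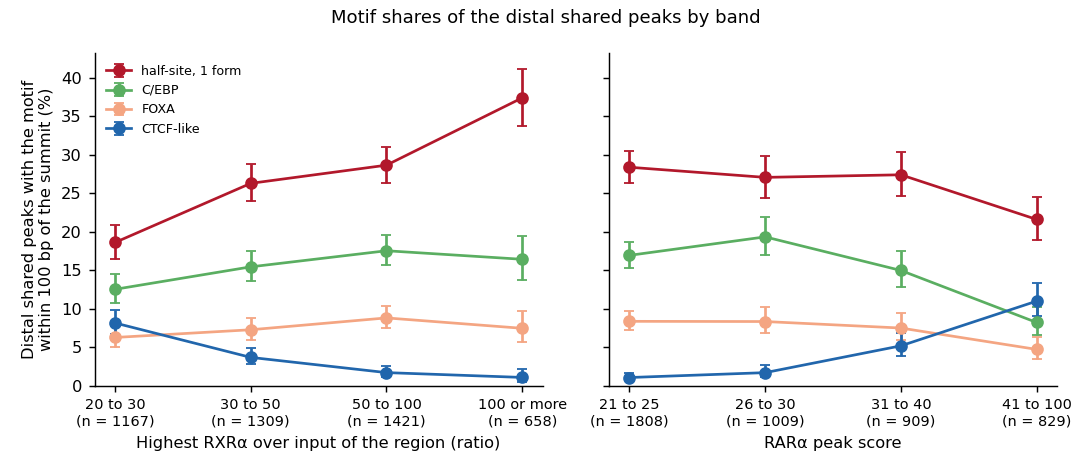
Share of the 4555 distal shared peaks with each motif within 100 bp of the summit, in percent with 95% Wilson intervals, by band of the highest RXRα over input ratio (left) and of the RARα score (right). AGGTCA (half-site, 1 form) climbs from 18.6 to 37.4% with the RXRα ratio, and the CTCF-like core climbs from 1.05 to 10.98% with the RARα score.

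The 6 peaks with the highest RARα score, 4 at 100 and 2 at 99, had a low mean RXRα over the peak for this set. Those at 100 lay near Gm10020, Prkcq, Bhlhe40 and Chd2. Near Bhlhe40, the gene of a repressor of the circadian clock, the mean RXRα signal was 19.04 against an input of 3.92, an enrichment of 4.85. Near Prkcq it was 10.9 against 2.75, near Chd2 13.8 against 3.12, and near Gm10020 20.7 against 3.55. The peaks at 99 lay near Mreg, with 13.8 against 1.59, and Scn3b, with 22.3 against 1.87. All 6 enrichments, from 3.97 to 11.96, were below the median of 12.96. The highest RXRα ratio of the region, with a median of 46.5 over the set, did not set them apart. It was above that median near Scn3b (73.0), Bhlhe40 (59.0) and Mreg (58.1). It was below near Gm10020 (41.5), Chd2 (39.8) and Prkcq (38.2).

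The 5 peaks with the highest RXRα enrichment had ordinary RARα scores, from 21 to 49. The first lay in an intron of Abcb4 at chr5:8928291-8928990, 34928 bp from its start. Abcb4 encodes the pump that moves phosphatidylcholine into bile. Its mean RXRα signal was 93.9 against an input of 0.682, an enrichment of 138, with a RARα score of 35. The next were in introns of Rbpms (132), upstream of 8430406I07Rik (126), and in introns of Agap1 (124) and Kcnk3 (117). Their mean RXRα signals ran from 70.5 to 136 and their inputs from 0.333 to 1.09.

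Of the 4555 peaks, 2459 (54.0%, 52.5 to 55.4%) had their summit inside a protein-coding gene and 2096 outside. Introns held 48.4%, UTRs 3.21% and coding exons 1.54%. The distal RARα peaks without RXRα were placed alike, with 53.7% (52.8 to 54.7%) inside genes. Of the peaks inside a gene, 65.6% (63.7 to 67.4%) were in the gene whose start was nearest, so the nearest start was that of another gene for the rest. The median distance to the start was 35896 bp, and 765 peaks (16.8%) were over 100 kb away. On the X chromosome there were 16 peaks among 133 distal RARα peaks of the same scores. Distal here refers to the annotated 5′ end of the gene, and 312 peaks (6.85%, 6.15 to 7.62%) lay within 1 kb of the start of another protein-coding transcript. A further class, 135 peaks (2.96%), lay within 1 kb of the start of a gene of another biotype, among them 36 of lincRNAs and 12 of miRNAs. The peaks near either kind of start, 435 in all, had a CpG content over 0.6 of that expected from their bases in 29.4% (25.3 to 33.9%), and the other 4120 in 5.61% (4.94 to 6.35%). The median of this measure over all 4555 was 0.235, compared to 0.232 for distal peaks without RXRα and 0.585 for shared peaks within 10 kb.

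Of the 12 peaks near miRNA starts, 3 are given here, chosen after their values were seen. A peak at -858 bp from the start of Mirlet7c-2, of the let-7 family, and at -29238 bp from that of Ppara had a RARα score of 32 and a mean RXRα signal of 40.04 against an input of 3.50. A peak 827 bp downstream of the start of Mir103-1, and 13739 bp from that of Pank3, had a score of 27 with 39.8 against 3.35. A peak at -986 bp from the start of Mir148a had a higher score, 59, with a lower RXRα signal, 6.73 against 0.545.

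The 4555 peaks lay on 4424 distinct RXRα regions and were nearest to 2506 genes, 11.3% of the 22238 protein-coding symbols. Most genes (1571) had 1 peak, and 142 had 5 or more. Ptpn1 and Tob1 had 16 each, Igf1 and Rreb1 15 each, and Acsl1, Frmd8 and Rxra 14 each. Ptpn1 encodes a phosphatase that acts on the insulin receptor, and 15 of its 16 peaks lay upstream, to -108422 bp, and 88.9% of its 18 distal RARα peaks were shared with RXRα. Tob1, the gene of an antiproliferative protein, had all 16 upstream, between -77128 and -12863 bp, on 12 RXRα regions. These ranks use the annotated 5′ end of each gene. By the nearest protein-coding transcript start, 9 of the 16 peaks of Tob1 belonged to Spag9 and 7 to Tob1, and 4 of the 14 of Rxra belonged to Wdr5, while all those of Ptpn1, Rreb1, Acsl1 and Frmd8 kept their gene. Of the 15 peaks of Igf1, the growth factor that the liver secretes into blood, 14 were inside the gene. For Acsl1, which activates long-chain fatty acids, 14 of 56 distal RARα peaks were shared. The 14 peaks of Frmd8 lay 24919 to 51229 bp downstream of its start, and for 8 of them the nearest start of another biotype was that of Neat1, a long noncoding RNA of nuclear paraspeckles. RARα scores there were 46 to 93 for the 6 peaks that lay 12063 to 20753 bp past the start of Neat1, with mean RXRα signals of 4.84 to 19.5.

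Rxra itself, which encodes RXRα, had 14 peaks at distances from -80055 to 82075 bp, 9 of them upstream of the gene and 5 in it, among 40 distal RARα peaks. The upstream ones fell into groups at about -80055 to -76285 bp, at -51495 to -49665 bp and at -36310 bp. The mean RXRα signal was highest, 70.5 against an input of 5.08, in the peak at -51495 bp (chr2:27480191-27480551), whose RARα score was 38. The RARα score was highest, 66, at -80055 bp, where RXRα was 26.1 against 2.27. In the gene body the RXRα signal of the 5 peaks was lower, from 6.94 to 18.7. One intronic RARα peak, at 76315 bp, was left out by the rule although its highest RXRα bin was 72, with an input of 5. The highest ratio of any bin in that peak was 17.0, below the threshold for an RXRα region. That peak was named after its values were seen. Rara had 2 of these peaks, both in its introns, with scores of 26 and 22 and RXRα signals of 35.1 and 7.86. Rarg and Rxrg had 1 each, and both lay at the start of another transcript of the same gene, at -514 bp and -55 bp from it.

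**Figure D5:**
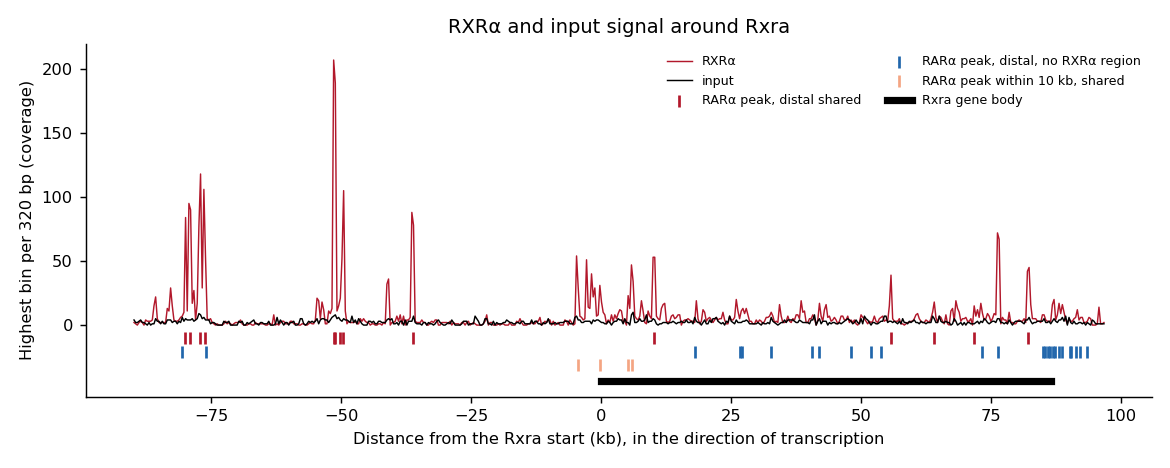
Highest RXRα and input bin per 320 bp (coverage) against the distance from the Rxra start, with marks for the RARα peaks of 3 kinds and a bar for the gene body. The highest RXRα bin, 207, stands among the 9 upstream peaks shared with RXRα, and the last RARα peak of the gene on an RXRα region is at 82075 bp.

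How often a distal RARα peak was shared varied with how many of them a gene had. Of genes with 1 distal RARα peak, 19.4% (18.1 to 20.7%) of the peaks were shared. The share was 33.5% (32.3 to 34.7%) for genes with 2 to 4 and 47.1% (45.1 to 49.1%) for 5 to 9. It was 44.2% (41.2 to 47.2%) for 10 to 19, and 15.95% (14.3 to 17.8%) for the 38 genes with 20 or more. In the last class, Cps1, the mitochondrial enzyme that starts the urea cycle, had 1 shared peak of 174, Ass1, another enzyme of that cycle, 2 of 64, and Apob, the apolipoprotein of very low density lipoproteins, 3 of 57. Counts for pathways are therefore given with and without genes of 20 or more distal RARα peaks, a choice made after seeing the data. Counts of single genes in the following paragraphs beyond the rule for naming were also picked after their values were seen. Without the 38 genes the share over all genes was 33.1% (32.2 to 33.9%). That share includes the genes with 1 distal RARα peak. The lists were not matched to it for the number of peaks per gene, so a higher share in a list may follow that number.

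Genes of retinoid handling and the retinoid receptors had a distal shared peak for 12 of 42, compared to 11.3% of all symbols, with 33 peaks of 79 distal RARα peaks (41.8%, 31.5 to 52.8%), of which 14 were of Rxra. Scarb1, a lipoprotein and carotenoid receptor, had a peak with an enrichment of 25.4, Adh1, a retinol and alcohol dehydrogenase, one with 24.2 and Rarg one with 24.05. Among the partner receptors of RXR, 9 of 26 genes had 26 of 59 distal RARα peaks shared (44.1%, 32.2 to 56.7%), an interval that starts just above the background share of 31.1% and holds the 33.1% found without the 38 genes. Ppara, the receptor of fatty acids, had 5, the highest with an RXRα signal of 89.2 against 2.71 and a score of 21 in its own intron, at -839 bp from the start of another of its transcripts. The peak in an intron of Nr1i2, which encodes PXR, had the higher RXRα signal, 146, but an input of 7.33, and so an enrichment of 19.9. Nr5a2 and Thrb, a thyroid hormone receptor, had 5 each and Nr2c1 had 4. Rxra is also the only gene of the first list with 20 or more distal RARα peaks, and 19 of 39 (48.7%, 33.9 to 63.8%) were shared without it.

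Transcription factors of hepatocytes were the list with the highest share of genes reached, 18 of 23, with 63 of 162 distal RARα peaks shared (38.9%, 31.7 to 46.6%) and 39 of 73 (53.4%, 42.1 to 64.4%) without Foxa2 and Onecut1. Onecut1, also called HNF6, had 13. The one with the highest enrichment, 74.2, lay at -205343 bp from the start at a place with no input signal, with an RXRα signal of 44.7 and a score of 23. Foxa2 had 11, Nfib 6, and Hnf4a and Xbp1 5 each. A peak 24663 bp downstream of the start of Cebpa had an RXRα signal of 60.1 against 0.938 and a score of 34.

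For lipid genes the share moved most when the genes with many RARα peaks were left out. For fatty acid and triglyceride genes, 37 of 94 had a distal shared peak, and 102 of 379 distal RARα peaks were shared (26.9%, 22.7 to 31.6%), which became 71 of 131 (54.2%, 45.7 to 62.5%) without Acsl1, Apob, Fads3, Lpin1 and Slc27a2. All 6 distal RARα peaks of Ppargc1a, a coactivator of fasting metabolism, and all 4 of Dgat2, which makes triglyceride, were shared. The highest enrichment was 63.2 near Fabp1, the fatty acid binding protein of liver, in an intron of Smyd1, with an RXRα signal of 38.1 against 0.545 and a score of 25. Peaks in introns of Cpt1a, the gate of mitochondrial fatty acid oxidation, and of Mogat2 had enrichments of 32.9 and 34.1. For bile acid and sterol genes, 20 of 45 had a shared peak, with 45 of 146 (30.8%, 23.9 to 38.7%), and 40 of 78 (51.3%, 40.4 to 62.1%) without Cyp7b1, which had 5 of 68. With all genes kept, the intervals of both lipid lists hold the background share of 31.1%. The shares without genes of many peaks stand beside 33.1% over all genes without the 38. Neither list was matched to that share for the number of peaks per gene. Insig1, which retains the sterol sensor in the endoplasmic reticulum, had 6 of 8.

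Genes of glucose and insulin had 53 of 113 distal RARα peaks shared (46.9%, 38.0 to 56.1%) at 17 of 36 genes. Without Igf1 it was 38 of 74 (51.4%, 40.2 to 62.4%). Sik1, a kinase induced in fasting, had 5 of 5, the highest with an RXRα signal of 85.8 against 2.33 and a score of 34. Irs2, the main insulin receptor substrate of liver, had 3 of 3, and Trib1 5 of 6. For the Irs2 peak of highest enrichment, at -132257 bp, the nearest protein-coding transcript start was that of Col4a1, at 76086 bp. Xenobiotic genes had 26 of 97 (26.8%, 19 to 36.4%) at 15 of 65 genes, an interval that holds the background share of 31.1%, led by Ces3b with an enrichment of 55.2 and Por, the reductase of cytochrome P450, with 52.9 at a place with no input signal. Secreted plasma proteins were below the background, with 29 of 165 (17.6%, 12.5 to 24.1%), and 26 of 95 (27.4%, 19.4 to 37.1%) without C8b and Pzp, an interval that holds the share over all genes. The highest there was Fgb, a fibrinogen chain, with an enrichment of 25.6. By transcript starts the named peaks of Fgb and Por were within 10 kb. The nearest protein-coding one was of Fga, at 6381 bp, for the first and of Por, at 8227 bp, for the second. Circadian genes had 14 of 28 (50%, 32.6 to 67.4%) at 6 of 20 genes, led by Hlf with an RXRα signal of 96.7 against 1.55, and all 3 distal RARα peaks of Per2 were shared.

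No expression was measured in these samples, and the lists of genes that mark other cells of the liver describe position only. Stellate cell genes had 1 of 10 distal RARα peaks shared (1.79 to 40.4%), near Dcn. Kupffer and immune cell genes had 1 of 6 (3.01 to 56.4%), near Id3, and biliary cell genes 1 of 8 (2.24 to 47.1%), near Sox9. Each of these intervals holds the background share of 31.1%, so the counts are too small to show a difference from it. Endothelial cell genes had 9 of 25 (36.0%, 20.2 to 55.5%) at 8 of 20 genes, among them Erg, Kdr and Lyve1, with enrichments of 23.5, 18.5 and 15.9. A nearest start does not show which gene a distal site acts on, and genes with long empty surroundings have more room for distal peaks, so the gene counts are descriptions of position.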

How the data were processed

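Chromatin immunoprecipitation and sequencing (ChIP-seq) was done by the authors on wild type mouse liver, with 1 library each for RXRα, RARα and input. Reads were aligned with Bowtie and RARα peaks called with MACS, per the labels, which also name CASAVA 1.4 and mm9. The deposited signal is linear coverage of reads in 32 bp bins for RXRα and input. The deposited RARα list gives a whole-number score for each peak and its false discovery rate in percent, and its coordinates fit mm9. The study's methods name mm10 for alignment, but the file headers name mm9 and no coordinate was converted.

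The RXRα and input tracks were scaled to the same mean, and regions, overlaps, distances to protein-coding starts (GENCODE M1 on NCBIM37, the mm9 assembly) and motif matches were computed with pysam 0.24.0, numpy 2.4.6 and pandas 2.3.3 under Python 3.11.15, and drawn with matplotlib 3.10.9. Input below its mean was set to the mean in ratios. Overlap and motif code was tested on simulated data. Motifs were matched exactly, on both strands, in 201 bp windows. The members and gene lists were chosen with earlier results of these data known. Named were the 5 peaks of highest score (6 with a tie), the 5 of highest enrichment, the 5 genes with most peaks (7 with ties), peaks with perfect repeats, here within 100 bp since few lay within 20 bp, and up to 4 genes a list. Alternatives are given in the closing section. Some genes that the rule would name are not reported here. All 3 files were used.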

Additional observations from a re-analysis of the deposited data

How the results depend on the processing

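The count of 4555 peaks became 7098 with an RXRα threshold of 10 times input, 2713 where the summit had to lie in the region, 1738 with a score over 30 and 1715 beyond 50 kb, and ran from 3269 to 6589 under the other settings. With distances taken to the starts of all protein-coding transcripts, the count was 3578. The share of distal RARα peaks on an RXRα region, 31.1%, was 48.5% at 10 times input, 22.6% at 30 times, 45.0% against the mean input alone, 29.9% with 50% overlap, 18.5% with the summit in the region, 25.1% with a score over 30, 35.4% with abutting peaks merged and 31.9% beyond 50 kb. For exact repeats the window and the accepted letters set the value. DR1 was 0.483% within 50 bp, 1.21% within 200 bp, 0.0878% with AGGTCA alone and 10.1% with up to 2 mismatches. DR2 was 0.176%, 0.703%, 0.0220% and 5.51% in that order. DR4 was 0.0659% within 50 bp, 0.0439% with AGGTCA alone and 5.82% with mismatches, and DR5 was 0.110%, 0% and 4.57%. Beyond 50 kb, 48.0% of peaks were inside a gene and the CpG measure was 0.220, and at 30 times input it was 0.227. The mismatch setting and the motif shares under other peak sets were chosen after seeing the data. Under these the CTCF-like core ran from 2.29 to 7.94%, AGGTCA from 24.6 to 29.7% and CAAAGTCCA from 2.13 to 2.93%. Leaving out masked repeats was not run, because the reference sequence used carries no masking. No paired analysis was possible because each antibody has 1 library, so that no value has a biological error, and the RARα list carries no depth.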
